A study of Mus musculus with 8 samples.

Results

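The 10 genes described here make or handle lung surfactant or mark the alveolar type 2 cell that secretes it: Sftpa1, Sftpb, Sftpc, Sftpd, Abca3, Lamp3, Napsa, Lpcat1, Slc34a2 and Etv5. Their probes were found by the RefSeq accession that the scanner output gives each probe, and all 10 passed the background filter, out of 28992 genes or accessions, of which 16571 carry a gene name. Lung RNA came from female BALB/c mice bought at 4 weeks of age and housed for 2 weeks before a feeding period of 70 days. One-colour arrays measured 2 mice in each of 4 groups, with lungs taken from each mouse separately. NT mice ate standard feed and met no ovalbumin (OVA). Ctrl-F mice ate standard feed, were injected with OVA and alum into the abdomen from Day 42 to Day 56, and inhaled OVA aerosol from Day 63 to Day 69. Cap-F mice had the same OVA exposure and ate feed blended with empty carbonate apatite particles (Cap). ODNcap-F mice had that exposure too, and ate feed in which the particles carried MsST, a CpG oligodeoxynucleotide.

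Surfactant is a film of phospholipid and protein that lowers surface tension in the alveolus and keeps it open at the end of a breath. Alveolar type 2 cells assemble its lipids with the small hydrophobic proteins SP-B and SP-C in lamellar bodies, while the collectins SP-A and SP-D bind sugars on microbes, allergens and dying cells and act in innate defence. The type 2 cell is also the progenitor of the flat type 1 cell, and alveolar macrophages clear used surfactant.

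The share of the 56605 probes that stood well above background ran from 61.3% to 65.0% over the arrays, no spot was saturated, and the correlation between the mice of a group over probes was between 0.994 and 0.996. Each member was well above background on all 8 arrays, and so were 13 of 13 other type 2 cell markers, which fits the labelled tissue. Of the members, Sftpb and Napsa had 2 probes each and the others 1; the brighter probe stands for the gene, and the other is described beside it. Levels are log2 signals after quantile normalization, which gives the arrays 1 shared distribution, and a difference of 1 is a factor of 2 in signal. All 8 arrays were on 1 slide and read in 1 scan. Row 1 of the slide held the NT and Ctrl-F arrays and row 2 the others, so slide row and group cannot be told apart except where both groups share a row, as Ctrl-F and NT do, and ODNcap-F and Cap-F. The number of arrays limits the precision: an exact permutation test of 2 mice against 2 cannot give a two-sided p below 0.333, so calls rest on a limma model across all probes.

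The comparison of Ctrl-F with NT asks what OVA sensitization and inhalation did on standard feed. The paper describes no sham injection or aerosol for NT. OVA, alum, the injections and the nebulizer sessions therefore cannot be told apart, and neither can slide column. In Ctrl-F against NT 6 of the 10 members were called lower at an adjusted p under 0.05, against 35.7% of all genes, and 1 was called higher, against 26.2%. With a fold over 2 also required, 0 of the 10 were lower and 0 were higher by their brighter probes, against 12.2% and 10.5% of all genes, while the dimmer Sftpb probe was called lower at 3.06-fold. The particle-fed groups differ from NT in feed and slide position as well as in OVA exposure, and these cannot be told apart. Cap-F against NT gave 7 members lower and 1 higher, where 32.4% and 24.1% of all genes were called. ODNcap-F against NT gave 7 lower and 1 higher, where 34.9% and 25.1% were called. These 3 comparisons share the NT mice, so they are given side by side and not as repeats of each other. The median log2 difference of the members was -0.44 for Ctrl-F, -0.53 for Cap-F and -0.49 for ODNcap-F, beside -0.12, -0.11 and -0.12 over all genes. With arrays scaled to their 75th percentile instead, the member medians were -0.20, -0.35 and -0.22, and the calls were 2 higher and 3 lower, 1 higher and 6 lower, and 2 higher and 5 lower. At that scaling 27.2% of all genes were called higher and 36.2% lower in Ctrl-F. The shares were 24.1% and 33% in Cap-F, and 25.9% and 35.4% in ODNcap-F. In whole lung, fewer cells of a type and less RNA per cell cannot be told apart.

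**Figure D1:**
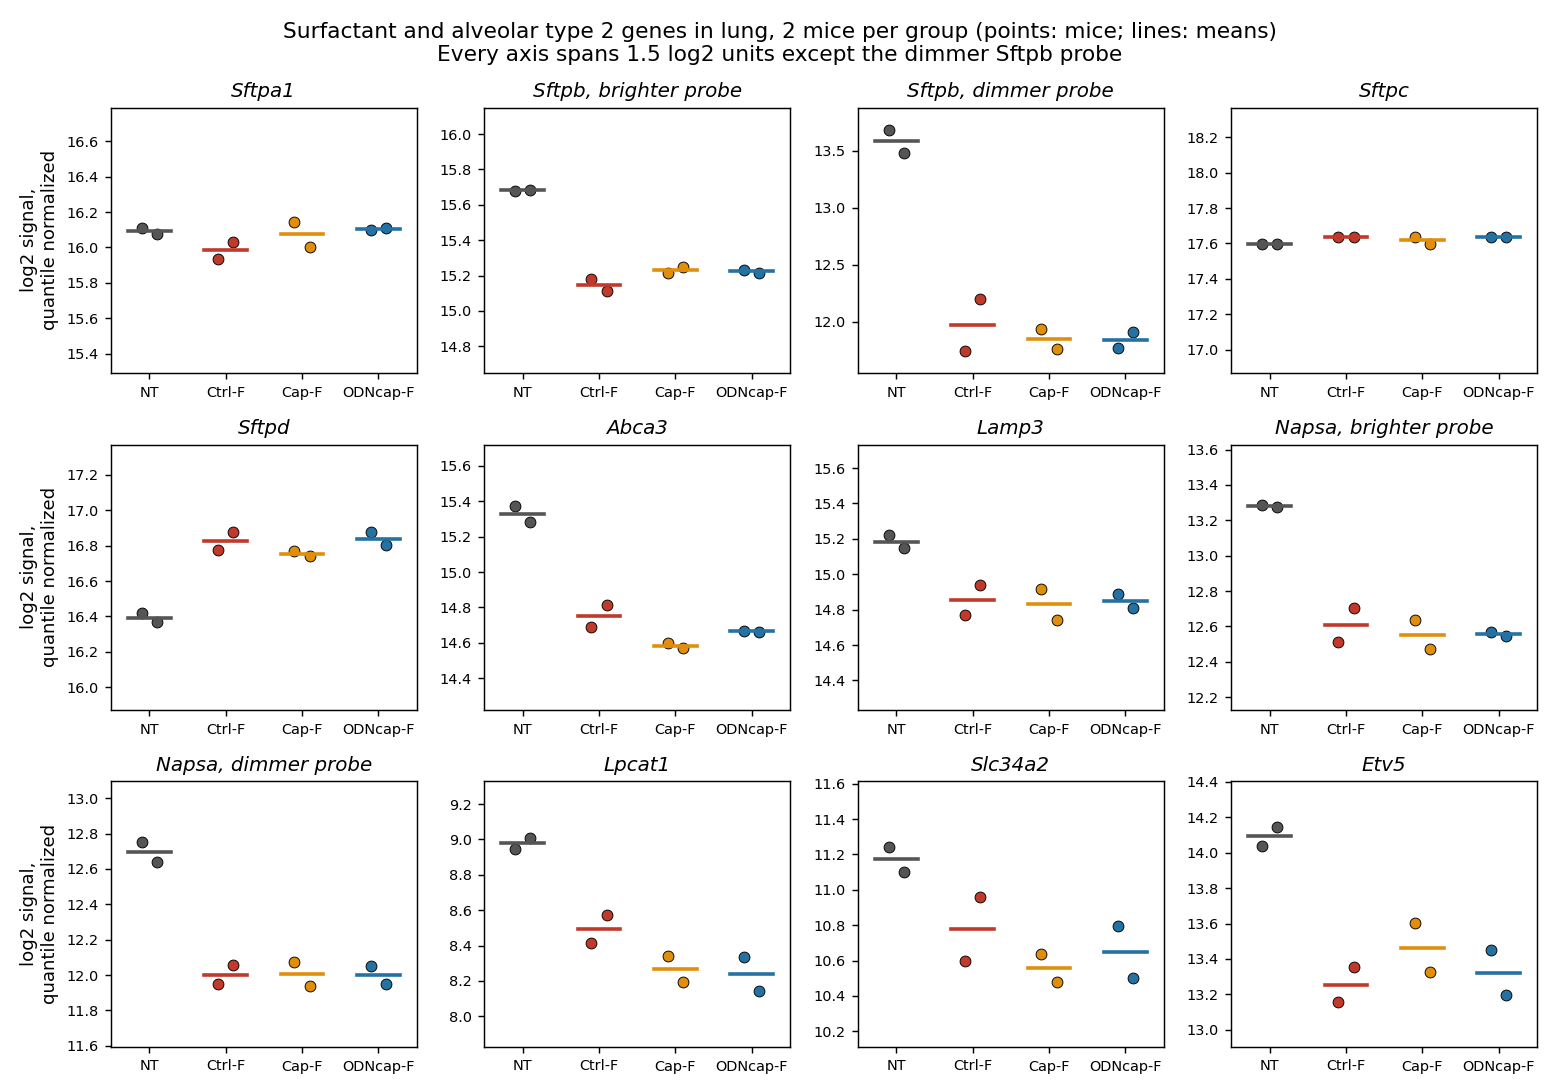
Log2 signal after quantile normalization (vertical axes) of each member probe in the 4 groups (horizontal axes), with a point for each mouse and a line for each group mean. In the NT mice Sftpb, Abca3, Lamp3, Napsa, Lpcat1, Slc34a2 and Etv5 lie above every OVA-exposed mouse and Sftpd lies below, with Lamp3 changing sign in Ctrl-F and ODNcap-F when arrays are scaled to the 75th percentile instead. The share of all genes that separate in this way was not counted. Of all genes, 35.7% were called lower and 26.2% higher in Ctrl-F against NT.

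Among the members, 7 had an entry in the RefSeq promoter table (build GRCm38.p6), Etv5 with 2 start sites, and Sftpc, Sftpd and Napsa had none. The promoters of Sftpa1, Sftpb and Lamp3, given as the 250 bases before the start, are shown because, under quantile normalization, Sftpb and Lamp3 were called lower in each of the comparisons with NT while Sftpa1 was called in none; at the 75th percentile Lamp3 was called in none, Sftpb in Cap-F alone, and Sftpa1 was called higher in Ctrl-F and ODNcap-F. The Sftpa1 promoter is chr14:41131538-41131787 on the plus strand, that of Sftpb is chr6:72304360-72304609 on the plus strand, and that of Lamp3 is chr16:19706366-19706615 on the minus strand. Capitals mark matches, on either strand, to letters that lung transcription factors are known to bind: CTCAAG (NKX2-1 type), TGTTTNC (FOXA type), TTGCNNAA (C/EBP type) and CCGGAAG (ETS type), with no match overlapping another.
Sftpa1: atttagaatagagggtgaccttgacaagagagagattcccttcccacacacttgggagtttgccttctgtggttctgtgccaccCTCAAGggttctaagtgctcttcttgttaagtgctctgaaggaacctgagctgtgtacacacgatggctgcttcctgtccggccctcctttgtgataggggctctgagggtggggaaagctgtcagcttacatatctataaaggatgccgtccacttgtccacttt
Sftpb: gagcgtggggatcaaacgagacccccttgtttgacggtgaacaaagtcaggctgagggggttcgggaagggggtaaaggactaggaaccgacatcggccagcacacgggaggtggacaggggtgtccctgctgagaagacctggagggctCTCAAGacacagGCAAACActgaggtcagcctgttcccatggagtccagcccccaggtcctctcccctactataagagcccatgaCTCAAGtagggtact
Lamp3: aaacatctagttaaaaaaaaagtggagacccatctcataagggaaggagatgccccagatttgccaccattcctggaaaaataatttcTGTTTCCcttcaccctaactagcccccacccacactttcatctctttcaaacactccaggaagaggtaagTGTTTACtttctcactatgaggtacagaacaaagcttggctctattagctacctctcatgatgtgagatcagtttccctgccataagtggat
CTCAAG lies 166 bases before the Sftpa1 start and 100 and 15 bases before the Sftpb start. TGTTTNC lies on the opposite strand 88 bases before the Sftpb start, on the same strand 162 and 92 bases before the Lamp3 start, and on the opposite strand 183 bases before a start of Etv5. TTGCNNAA lies 48 bases before the Slc34a2 start, and CCGGAAG is in 0 of the member promoters. Of the 7 members, 2 held CTCAAG, 3 held TGTTTNC and 1 held TTGCNNAA, beside 13.3%, 17.8% and 9.56% of all 32851 promoters, with CCGGAAG in 6.91%. A match is a description, not a site, and its absence says only that the letters are not in this window. In the RefSeq gene order of the same assembly, Sftpa1, the pseudogene Gm7920, Mbl1 and Sftpd follow one another, which puts the genes of both surfactant collectins side by side with a mannose-binding lectin gene.

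SP-B, made from Sftpb (NM_147779), spreads lipid at the air surface and is needed for lamellar bodies to form. The brighter Sftpb probe read 15.68 and 15.69 in the NT mice, 15.18 and 15.11 in Ctrl-F, 15.21 and 15.25 in Cap-F, and 15.23 and 15.22 in ODNcap-F. The NT mice sat above all 6 OVA-exposed mice, and mice of 1 group lay close together. Sftpb fell by 0.54 in Ctrl-F (standard error 0.063, adjusted p 0.000761), a signal 1.45-fold lower than in NT. In Cap-F it fell by 0.45 (adjusted p 0.00172), and in ODNcap-F it fell by 0.46 (adjusted p 0.00150). Scaling each array to its 75th percentile, in place of quantile normalization, kept this direction with smaller differences, -0.19 in Ctrl-F (adjusted p 0.0542) and -0.13 in ODNcap-F (adjusted p 0.150), neither of which passed the threshold, and -0.22 in Cap-F (adjusted p 0.0344), which did. Over the 18 alternatives that keep the threshold of an adjusted p under 0.05, and require no fold, the adjusted p of Sftpb ranged from 9.57e-08 to 0.0542 in Ctrl-F and from 2.64e-05 to 0.150 in ODNcap-F.

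The dimmer of the Sftpb probes, which carries the same accession, moved further. It read 13.68 and 13.48 in the NT mice, 11.74 and 12.20 in Ctrl-F, 11.94 and 11.76 in Cap-F, and 11.77 and 11.91 in ODNcap-F. Again the NT mice stood apart from all the others. This probe fell by 1.61 in Ctrl-F (standard error 0.168, adjusted p 0.000488), 3.06-fold below NT, and it was 3.33-fold lower in Cap-F and 3.35-fold lower in ODNcap-F. The gap between the 2 probes can be read on each array without any scaling. Relative to its NT mean, the dimmer probe minus the brighter 1 was 0.078 and -0.078 in the NT mice, -1.54 and -0.98 in Ctrl-F, -1.32 and -1.53 in Cap-F, and -1.55 and -1.41 in ODNcap-F. The probes of this 1 gene therefore differ in the size of their change in every OVA-exposed mouse, and the signal of Sftpb has no single fold. The cause of the gap was not tested.

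SP-A, the more abundant surfactant collectin in the airspace, comes from Sftpa1 (NM_023134). Its signal was 16.11 and 16.08 in the NT mice, 15.94 and 16.03 in Ctrl-F, 16.15 and 16.00 in Cap-F, and 16.10 and 16.11 in ODNcap-F. All 8 mice lay between 15.94 and 16.15, with the Ctrl-F mice just under NT and the others overlapping it. Sftpa1 passed the test in none of the comparisons with NT: the difference was -0.11 in Ctrl-F (95% interval -0.30 to 0.081), -0.021 in Cap-F (-0.21 to 0.17) and 0.0088 in ODNcap-F (-0.18 to 0.20). This reading depends on the scaling: at the 75th percentile the difference was 0.22 in Ctrl-F (adjusted p 0.0464), 0.19 in Cap-F (adjusted p 0.0749) and 0.33 in ODNcap-F (adjusted p 0.0122), so that the sign turned in Ctrl-F and Cap-F and Sftpa1 was called higher in Ctrl-F and ODNcap-F. The adjusted p over all alternatives ran from 0.0464 to 0.621 in Ctrl-F and from 0.0122 to 0.985 in ODNcap-F.

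SP-C, made from Sftpc (NM_011359) and found in type 2 cells alone, is a small lipid-bound peptide that helps surfactant adsorb to the surface. Its signal was 17.60 in both NT mice, 17.64 in both Ctrl-F and both ODNcap-F mice, and 17.64 and 17.60 in Cap-F. Quantile normalization gives a probe the mean value of its rank, and Sftpc held rank 3 or 4 from the brightest on every array, so only a pair of values could occur and a change could hardly show. Scaled to the 75th percentile its signal was 17.70 and 17.62 for NT, 17.67 and 17.53 in Ctrl-F, 17.56 and 17.59 in Cap-F, and 17.66 and 17.70 in ODNcap-F, with Ctrl-F and ODNcap-F overlapping NT and Cap-F just under it. The quantile-normalized difference from NT was 0.041 in Ctrl-F (95% interval -0.11 to 0.19), 0.021 in Cap-F (-0.13 to 0.17) and 0.041 in ODNcap-F (-0.11 to 0.19). At the 75th percentile it was -0.057 in Ctrl-F and -0.087 in Cap-F, which turned the sign, and 0.022 in ODNcap-F, and Sftpc was called under neither scaling.

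SP-D, from Sftpd (NM_009160), is the collectin that regulates surfactant pool size and macrophage activity. Sftpd was 16.42 and 16.37 in the NT mice, 16.78 and 16.88 in Ctrl-F, 16.77 and 16.74 in Cap-F, and 16.88 and 16.81 in ODNcap-F. It was the 1 member called higher, and each OVA-exposed mouse lay above both NT mice. Sftpd rose by 0.43 in Ctrl-F (standard error 0.071, adjusted p 0.00285), to 135% of NT, by 0.36 in Cap-F (adjusted p 0.00650) and by 0.45 in ODNcap-F (adjusted p 0.00263). The rise was larger at the 75th percentile, at 0.61, 0.51 and 0.65, and Sftpd kept its direction and its call under all 18 alternatives in each of the 3 comparisons.

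Differences between members on the same array, before any scaling, put these genes on a footing that the normalization cannot move. Set to 0 at the NT mean, Sftpd minus Sftpb was 0.76 and 0.83 in Ctrl-F, 0.74 and 0.72 in Cap-F, and 0.82 and 0.75 in ODNcap-F, while the NT mice differed from their mean by 0.025. Sftpd minus Sftpa1, the pair of collectin genes, was 0.41 and 0.36 in Ctrl-F, 0.26 and 0.37 in Cap-F, and 0.37 and 0.28 in ODNcap-F, with the NT mice within 0.012 of their mean. Such ratios show unequal change only: Sftpd gained on Sftpb and on Sftpa1 in all 6 OVA-exposed mice, whichever of them moved.

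**Figure D2:**
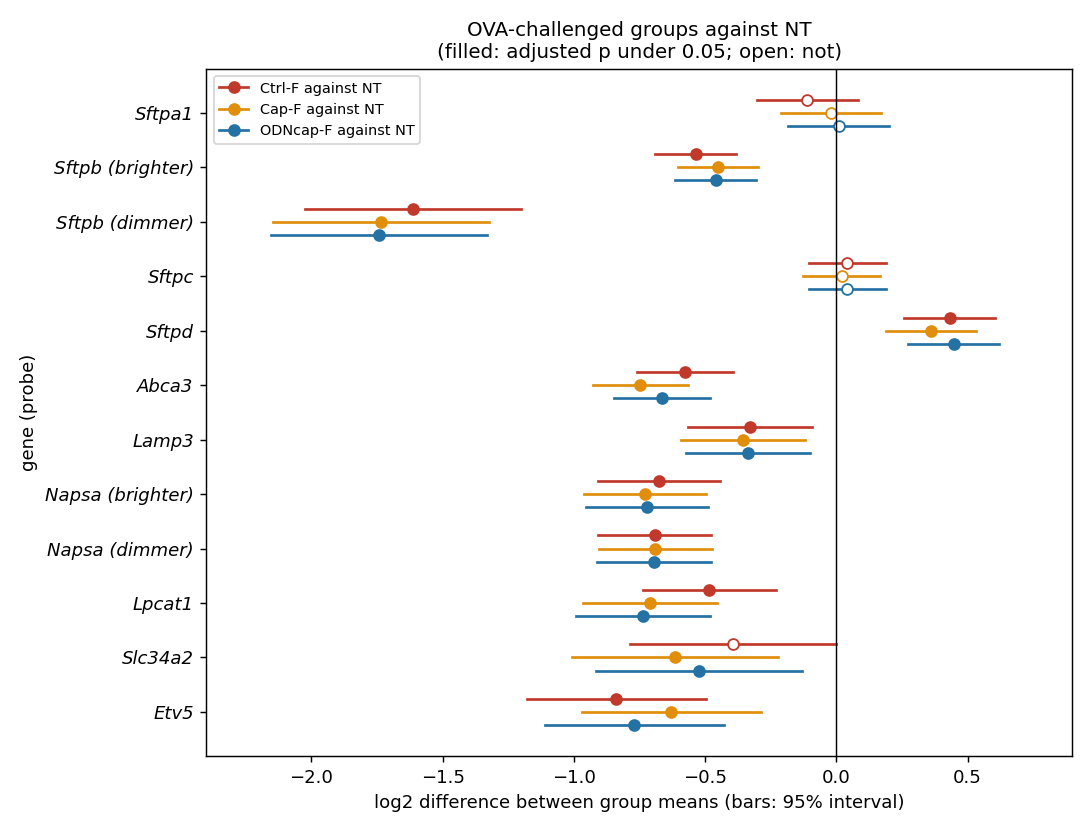
Log2 difference from NT (horizontal axis) of each member probe (vertical axis) for Ctrl-F, Cap-F, then ODNcap-F, with bars for the 95% interval and filled points for an adjusted p under 0.05. Sftpd lies above 0 and 7 genes lie below 0 in all 3 comparisons, with the dimmer Sftpb probe lowest; at the 75th percentile Lamp3 crosses 0 in Ctrl-F and ODNcap-F, and Sftpa1 and Sftpc cross it in Ctrl-F and Cap-F.

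Abca3 (NM_013855) encodes the transporter that loads phospholipid into lamellar bodies. Its signal was 15.37 and 15.28 in the NT mice, 14.69 and 14.82 in Ctrl-F, 14.60 and 14.57 in Cap-F, and 14.67 and 14.66 in ODNcap-F. The NT mice again lay above all others without overlap. Abca3 fell by 0.58 in Ctrl-F (standard error 0.074, adjusted p 0.00109), to 67.1% of NT, and to 59.6% in Cap-F and 63.1% in ODNcap-F. At the 75th percentile the differences were smaller: -0.21 in Ctrl-F (adjusted p 0.0674, in a range from 7.34e-08 to 0.0674 over the alternatives), where the call was lost, -0.51 in Cap-F and -0.32 in ODNcap-F, where it was kept. On the same array, Sftpd minus Abca3 stood 0.87 and 0.76 above the NT mean in Ctrl-F, 1.0 and 1.05 in Cap-F, and 1.01 and 0.94 in ODNcap-F.

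Lamp3 (NM_177356) encodes a lysosome-associated membrane protein that marks lamellar bodies. It read 15.22 and 15.15 in the NT mice, 14.77 and 14.94 in Ctrl-F, 14.92 and 14.74 in Cap-F, and 14.89 and 14.81 in ODNcap-F. Under quantile normalization the NT mice lay above the rest. Lamp3 fell by 0.33 in Ctrl-F (standard error 0.096, adjusted p 0.0261), by 0.35 in Cap-F (0.0222) and by 0.34 in ODNcap-F (0.0252), but at the 75th percentile the difference was 0.031, -0.11 and 0.0068, so the sign turned in Ctrl-F and ODNcap-F and no call remained. Scaled that way, Lamp3 was 14.99 and 14.89 for NT, 14.91 and 15.03 in Ctrl-F, 14.94 and 14.71 in Cap-F, and 14.96 and 14.93 in ODNcap-F, and the groups overlapped. The calls were also lost when certain single arrays were left out, while the difference stayed negative. Without NT mouse 1 or NT mouse 2 it was -0.29 or -0.37 in Ctrl-F, -0.32 or -0.39 in Cap-F, and -0.30 or -0.38 in ODNcap-F. Without Ctrl-F mouse 1 it was -0.25 in Ctrl-F, and without Cap-F mouse 2 it was -0.27 in Cap-F. Without ODNcap-F mouse 1 or mouse 2 it was -0.38 or -0.30 in ODNcap-F. Over all alternatives the adjusted p ran from 0.00319 to 0.806 in Ctrl-F, from 0.00139 to 0.372 in Cap-F and from 0.00446 to 0.957 in ODNcap-F. A change in Lamp3 is therefore not established by these arrays.

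Napsa (NM_008437) encodes an aspartic protease that helps to cut the SP-B precursor. Its brighter probe read 13.29 and 13.28 in the NT mice, 12.51 and 12.70 in Ctrl-F, 12.64 and 12.47 in Cap-F, and 12.57 and 12.55 in ODNcap-F. All 6 OVA-exposed mice were well below both NT mice. Napsa fell by 0.67 in Ctrl-F (standard error 0.095, adjusted p 0.00155), to 62.7% of NT, by 0.73 in Cap-F (adjusted p 0.00133) and by 0.72 in ODNcap-F (adjusted p 0.00127). Its dimmer probe gave nearly the same sizes, -0.69 in each of the 3 comparisons, unlike the pair of Sftpb probes. Napsa kept its direction and call under all 18 alternatives in each comparison, with -0.52, -0.67 and -0.60 at the 75th percentile.

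Lpcat1 (NM_145376) encodes the acyltransferase that remodels phosphatidylcholine into the dipalmitoyl form of surfactant. Its signal was 8.95 and 9.01 in the NT mice, 8.42 and 8.57 in Ctrl-F, 8.34 and 8.20 in Cap-F, and 8.34 and 8.15 in ODNcap-F. No OVA-exposed mouse reached the NT mice, and the Ctrl-F mice were the nearest to them. Lpcat1 fell by 0.48 in Ctrl-F (standard error 0.104, adjusted p 0.00837), to 71.5% of NT, by 0.71 in Cap-F (adjusted p 0.00208) and by 0.74 in ODNcap-F (adjusted p 0.00168). It too kept direction and call under all 18 alternatives, and scaling to the 75th percentile left its differences at -0.50, -0.72 and -0.75.

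Slc34a2 (NM_011402) encodes the sodium-phosphate cotransporter through which type 2 cells take up phosphate freed from surfactant. Its signal was 11.24 and 11.10 in the NT mice, 10.60 and 10.96 in Ctrl-F, 10.64 and 10.48 in Cap-F, and 10.80 and 10.50 in ODNcap-F. Ctrl-F mouse 2 came closest to NT, and the standard error, 0.160, was the largest among the brighter probes of the members. In Ctrl-F the difference was -0.40 (95% interval -0.79 to -0.0030, adjusted p 0.0747) and did not pass the test, while Slc34a2 fell by 0.61 in Cap-F (adjusted p 0.0192) and by 0.52 in ODNcap-F (adjusted p 0.0317). That it was called in the particle-fed groups and not in Ctrl-F does not show a difference between them, since Cap-F against Ctrl-F gave -0.22 (95% interval -0.61 to 0.17). Without Ctrl-F mouse 2 the Ctrl-F difference was -0.58 and passed (adjusted p 0.0353), as it also did under normexp (0.0339), with an intensity trend (0.0335) and by the local-pooled-error test (0.0161), while without Ctrl-F mouse 1 it was -0.21 (adjusted p 0.317). The Cap-F call was lost without NT mouse 1 (difference -0.54), NT mouse 2 (-0.68) or Cap-F mouse 2 (-0.54). The ODNcap-F call was lost without NT mouse 1 (difference -0.45), NT mouse 2 (-0.60) or ODNcap-F mouse 2 (-0.38). It was also lost with no background filter (-0.52, adjusted p 0.0627). The adjusted p ranged over the alternatives from 0.0161 to 0.317 in Ctrl-F, from 9.89e-05 to 0.0920 in Cap-F and from 0.00294 to 0.141 in ODNcap-F, and the sign was negative under all 3 scalings.

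Etv5 (NM_023794) encodes an ETS transcription factor that acts downstream of FGF receptors and ERK and maintains the type 2 cell state. It read 14.04 and 14.15 in the NT mice, 13.16 and 13.35 in Ctrl-F, 13.60 and 13.33 in Cap-F, and 13.45 and 13.20 in ODNcap-F. The NT mice were above all others, and the OVA-exposed groups overlapped among themselves. Etv5 fell by 0.84 in Ctrl-F (standard error 0.139, adjusted p 0.00304), to 55.9% of NT, by 0.63 in Cap-F (adjusted p 0.0104) and by 0.77 in ODNcap-F (adjusted p 0.00446). In Ctrl-F and ODNcap-F it kept direction and call under all 18 alternatives. The Cap-F call was lost without NT mouse 2 or Cap-F mouse 2, where the difference was still -0.57 and -0.49. At the 75th percentile the differences were -0.58, -0.49 and -0.55.

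Scaling moved the members by unequal amounts: from quantile normalization to the 75th percentile the Ctrl-F difference of Abca3 went from -0.58 to -0.21, and that of Lpcat1 from -0.48 to -0.50. In the brightest 1% of genes the median Ctrl-F difference from NT was 0.026 under quantile normalization and 0.30 at the 75th percentile, and in the next 1% it was 0.036 and 0.41. Over all genes the median was -0.12 under both, and the calls went from 26.2% higher and 35.7% lower to 27.2% and 36.2%. Relative to the median of all genes, Sftpd stood at 0.55 and Etv5 at -0.72 under quantile normalization, and at 0.73 and -0.46 at the 75th percentile. On that same relative scale Sftpb stood at -0.42 and -0.064, Abca3 at -0.46 and -0.084, Napsa at -0.56 and -0.40, and Lpcat1 at -0.37 and -0.38. That scale takes no account of brightness, and the medians of the brightest genes, given above, rose at the 75th percentile. For bright members such as Sftpb and Abca3 it is therefore not a comparison with genes of like signal. The third processing, normexp background correction followed by quantile normalization, gave member differences near those of quantile normalization alone and added a call for Slc34a2 in Ctrl-F (-0.37, adjusted p 0.0339).

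**Figure D3:**
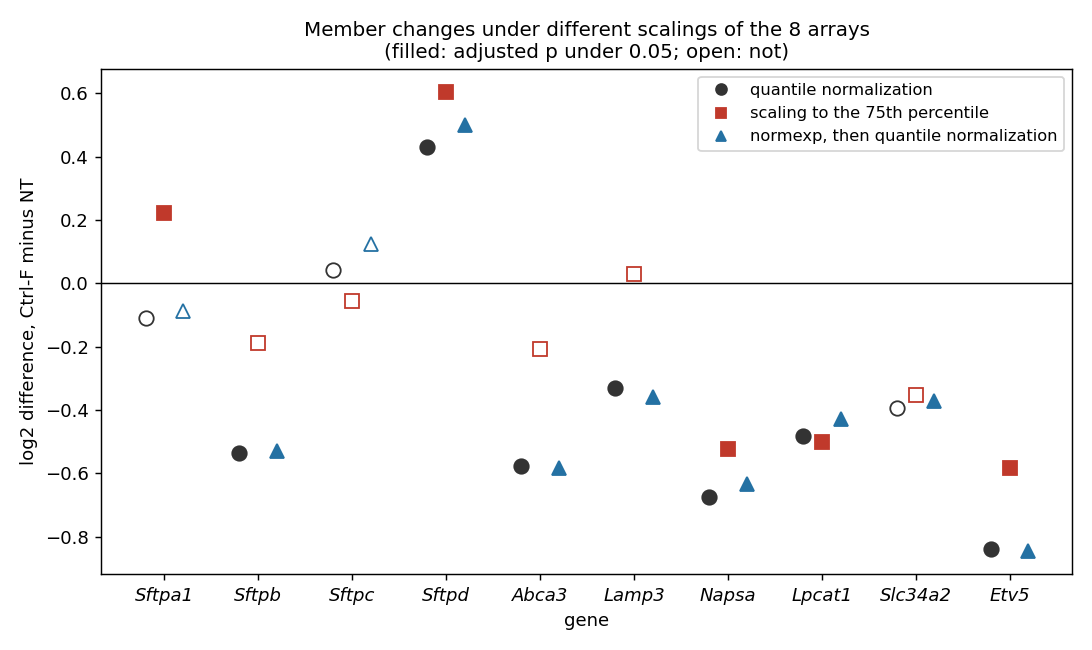
Log2 difference of Ctrl-F from NT (vertical axis) of the 10 members (horizontal axis) under quantile normalization (circles), scaling to the 75th percentile (squares) and normexp with quantile normalization (triangles), filled where the adjusted p was under 0.05. Sftpd stays above 0 and Napsa, Lpcat1 and Etv5 stay below it with filled symbols under all 3, while Sftpa1, Sftpc and Lamp3 change sign at the 75th percentile.

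As a whole, the mean log2 level of the 10 members was 14.39 and 14.37 in the NT mice, 13.97 and 14.10 in Ctrl-F, 14.05 and 13.94 in Cap-F, and 14.05 and 13.96 in ODNcap-F. At the 75th percentile it was 14.28 and 14.22 for NT, 14.05 and 14.14 in Ctrl-F, 14.05 and 13.92 in Cap-F, and 14.10 and 14.04 in ODNcap-F. The NT mice were highest under both scalings, by less under the latter.

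The comparisons among the OVA-exposed groups ask whether feed moved these genes: ODNcap-F against Ctrl-F for the loaded particles, ODNcap-F against Cap-F for the oligodeoxynucleotide inside them, and Cap-F against Ctrl-F for the particles alone. In ODNcap-F against Ctrl-F limma called 0 of the 10 members, beside 0% of all genes, and their differences ran from -0.25 for Lpcat1 to 0.12 for Sftpa1, with a median of -0.0036. In ODNcap-F against Cap-F it called 0 of 10, beside 0.00345% of all genes, and the range was from -0.14 for Etv5 to 0.089 for Slc34a2. In Cap-F against Ctrl-F it called 0 of 10, beside 0.00345%, and the range was from -0.23 for Lpcat1 to 0.21 for Etv5. The count was also 0 in each of these at an unadjusted p under 0.05, beside 6.78%, 13.4% and 16.6% of all genes in that order. By the local-pooled-error test it was 0 in each as well, beside 0.838%, 0.855% and 1.48%. With 10 members, a count of 0 at such shares says little about them. An adjusted p above the threshold does not show equal levels, so the intervals matter. Over the brighter probes of the members they spanned -0.52 to 0.41, -0.48 to 0.48 and -0.61 to 0.55, and the widest of these single intervals reached 0.39 to either side. The dimmer Sftpb probe had a wider one, -0.54 to 0.28 in ODNcap-F against Ctrl-F. Closest to leaving out 0 was the interval of Lpcat1 between ODNcap-F and Ctrl-F, -0.51 to 0.00082, with an adjusted p of 0.742. Next came Abca3 between Cap-F and Ctrl-F, at -0.17 with an interval of -0.35 to 0.011 and an adjusted p of 0.330.

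**Figure D4:**
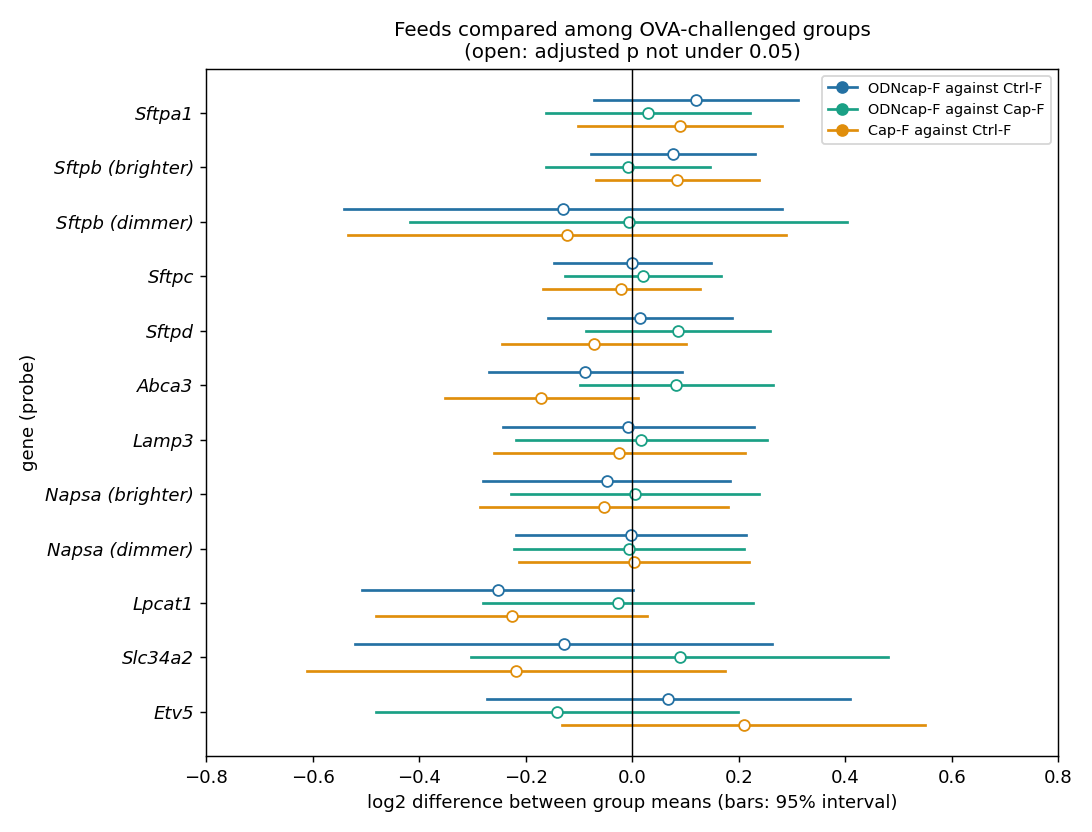
Log2 difference (horizontal axis) of each member probe (vertical axis) between OVA-exposed groups on different feeds, with bars for the 95% interval. Every point is open, for an adjusted p not under 0.05, and every bar crosses 0; at the 75th percentile Sftpa1 and Sftpb change sign in Cap-F against Ctrl-F and Sftpb in ODNcap-F against Cap-F.

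Beside the members, 17 lists of 168 genes on surfactant biology and lung cell types were read in Ctrl-F against NT, with no gene on more than 1 list, and 166 genes had a value. In that comparison 26.2% of all genes were called higher and 35.7% lower, and the lists were not tested against these shares. The other type 2 cell markers went both ways, with 4 higher and 6 lower of 13 and a median of -0.23 (4 higher, 4 lower and -0.10 at the 75th percentile): Chil1, a chitinase-like protein, rose by 1.06 and the potassium channel gene Kcnj15 rose by 1.13, while Bex2, an adaptor protein gene, fell by 3.0 and Lyz2, a lysozyme gene, fell by 1.31. Like the members, this set of type 2 genes held calls in both directions. Genes of surfactant lipid synthesis were 5 higher and 11 lower of 24, with a median of -0.18, or 5 higher and 9 lower with a median of -0.053 at the 75th percentile. The fatty acid carrier Fabp5 rose by 1.28 and the malic enzyme Me1 rose by 1.06, whereas Prdx6, a peroxiredoxin with phospholipase activity toward surfactant lipid, fell by 1.34. Genes of surfactant protein processing, lamellar body transport and secretion were 5 higher and 7 lower of 17, with a median of 0.037 that turned to -0.028 under normexp, beside -0.014 in Cap-F (0.0013 under normexp) and 0.018 in ODNcap-F; at the 75th percentile 7 were higher and 6 lower, and 1 of those called lower, Anxa2, changed sign. The ubiquitin ligases Nedd4l and Nedd4 fell by 1.21 and 0.85, the receptor Adgrf5, which limits surfactant pools, fell by 1.81, and the purinergic receptor P2ry2, which triggers secretion, rose by 1.99, with a dimmer probe of Nedd4l at -2.24.

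The 11 listed transcription factors of alveolar epithelium were 0 higher and 8 lower in Ctrl-F, with medians of -0.87, -0.81 and -0.80 for Ctrl-F, Cap-F, then ODNcap-F. Which cells of the whole lung carried this fall was not tested. Foxa2 fell by 1.14, Nfib by 1.20, the glucocorticoid receptor gene Nr3c1 by 0.99 and Gata6 by 1.03. Nkx2-1, whose motif is in the Sftpa1 and Sftpb promoters printed above and which is named here after its value was seen, fell by 0.87 (adjusted p 0.000210). Any link between that fall and the levels of these members was not tested. Among FGF receptor and ERK feedback genes, the pathway upstream of Etv5, 1 was higher and 6 were lower of 8, with medians of -1.20, -1.22 and -1.03 for the groups in that order. The ligand gene Fgf7 fell by 1.86 and the feedback inhibitors Spry1 and Spry2 fell by 1.81 and 1.29, in the same direction as Etv5. Its closest relative on the list, Etv4, went the other way and rose by 1.25, and a second, dim probe, above background on both Ctrl-F arrays and neither NT array, rose by at least 1.42.

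Among other collectins, relatives of SP-A and SP-D, 0 were higher and 2 lower of 4 tested, with a median of -0.82, or -0.69 with genes that fell under background set at their bound, and -0.40 under normexp. Colec12, a scavenger receptor, fell by 0.72, and Mbl1, the gene next to Sftpd, was not well above background on either Ctrl-F array and was at least 1.56-fold lower. Colec10 and Colec11 were not called, and Mbl2 did not pass the background filter. So Sftpd was the only collectin gene called higher in Ctrl-F under quantile normalization, with Sftpa1 joining it at the 75th percentile. Genes by which alveolar macrophages clear surfactant were 7 higher and 1 lower of 12, with a median of 0.49: the GM-CSF receptor genes Csf2rb and Csf2ra rose by 1.96 and 1.71, the transcription factor Spi1 rose by 1.98 and the proton pump subunit Atp6v0d2 rose by 2.55. The 1 lower was the scavenger receptor Marco at -3.98, named after its value was seen. Markers of transitional alveolar epithelium, the state between type 2 and type 1 cells, were 3 higher and 5 lower of 12, with a median of 0.062, or 4 higher and 3 lower at the 75th percentile, while each particle-fed group had 1 higher and 3 lower, with medians of -0.23 (Cap-F) and -0.052 (ODNcap-F), which at the 75th percentile were -0.19 and 0.10; the keratins Krt7 and Krt19 fell by 0.78 and 0.70, the stress gene Ndrg1 fell by 0.58 and the tight junction gene Cldn4 rose by 1.62. The list named for inflamed type 2 cells had 6 higher of 6, with medians of 2.05, 1.68 and 2.20 over the same groups. In whole-lung RNA the cell source of this rise was not tested, so the list name does not place it in type 2 cells. The acute-phase genes Saa3 and Orm1 rose by 5.61 and 1.90, the iron-binding lipocalin Lcn2 rose by 2.38 and the alarmin Il33 rose by 2.21.

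**Figure D5:**
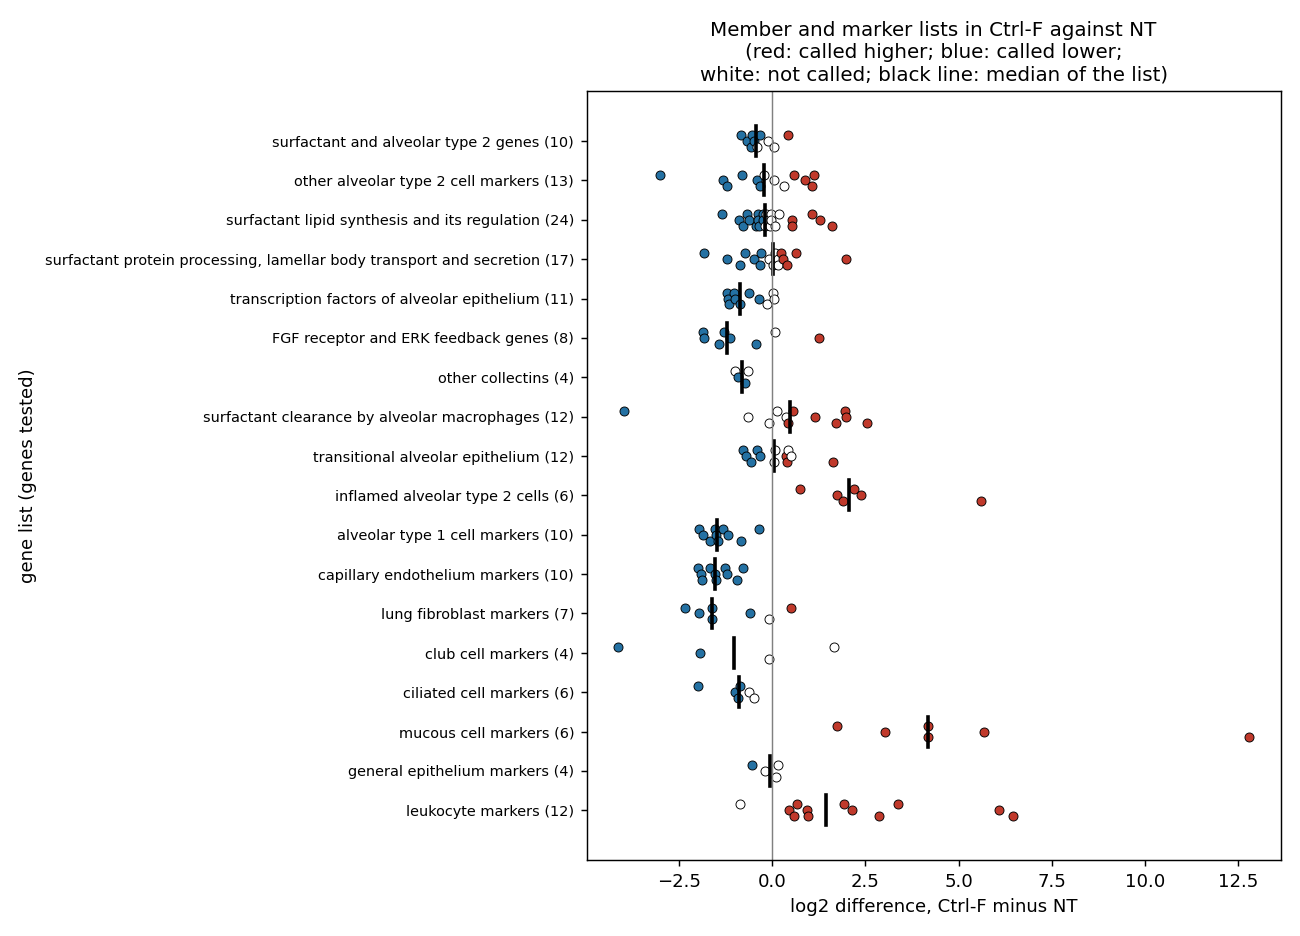
Log2 difference of Ctrl-F from NT (horizontal axis) for each gene of the member list and of 17 other lists (vertical axis), red where called higher, blue where called lower and white where not called, with a black line at the median of each list. The members have 6 lower and 1 higher, Lamp3, Sftpa1 and Sftpc changing sign at the 75th percentile, while type 1 cell and capillary markers lie on the low side and leukocyte and mucous cell markers on the high side.

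Markers of other lung cells moved in the same comparison, and their part in the result was not tested. Leukocyte markers were 11 higher of 12, with a median of 1.45, led by the plasma cell genes Jchain at 6.09 and Mzb1 at 6.45, the integrin Itgax at 3.37 and the eosinophil receptor Ccr3 at 2.88. Their summed log2 signal was 15.24 and 15.06 in the NT mice, 17.53 and 17.54 in Ctrl-F, 17.50 and 17.52 in Cap-F, and 17.49 and 17.52 in ODNcap-F, with Csf1r brightest in NT and Jchain in the OVA-exposed mice. The mean log2 of the list was 10.35 and 10.14 for NT and lay between 12.17 and 12.47 in the 6 OVA-exposed mice. Type 1 cell markers were 10 lower of 10, with a median of -1.48, among them Hopx at -1.85, Akap5 at -1.97, Gprc5a at -1.19 and the water channel Aqp5 at -1.54, while Rtkn2 had no probe. Their sum, in which Ager was brightest, was 18.42 and 18.48 for NT, 17.20 and 17.39 in Ctrl-F, 17.22 and 17.20 in Cap-F, and 17.35 and 17.44 in ODNcap-F. Capillary markers were 10 lower of 10, with a median of -1.52: the VEGF receptor Kdr at -1.51, the phosphatase Ptprb at -1.89, the adrenomedullin receptor Calcrl at -1.66 and the cadherin Cdh5 at -1.20. Their sum, with Ramp2 brightest, was 17.83 and 17.93 for NT, 16.19 and 16.51 in Ctrl-F, 16.46 and 16.56 in Cap-F, and 16.44 and 16.50 in ODNcap-F. The NT mice stood above every other mouse in both sums. Fibroblast markers were 1 higher and 5 lower of 7 (2 higher and 5 lower at the 75th percentile), with a median of -1.61, among them the methyltransferase Inmt at -2.34, the receptor Pdgfra at -1.61, the matrix gene Npnt at -1.62 and the transcription factor Tcf21 at -1.95, while Col1a1, named after its value was seen, was higher at 0.50. Their sum, with Inmt brightest, was 17.41 and 17.38 for NT, 15.80 and 15.91 in Ctrl-F, 16.17 and 16.27 in Cap-F, and 15.85 and 15.98 in ODNcap-F.

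Airway cell lists were read beside the same shares of all genes, 26.2% called higher and 35.7% lower in Ctrl-F against NT. Club cell markers were 0 higher and 2 lower of 4, with a median of -1.01, and the secretoglobin Scgb3a2 fell by 4.12 and the cytochrome Cyp2f2 fell by 1.95. A further secretoglobin gene on that list, Scgb3a1, named after its value was seen, was at 1.65 without a call in Ctrl-F (adjusted p 0.148) and at 2.32 without one in Cap-F (0.0646), and was called higher in ODNcap-F at 2.54 (0.0467), where club cell markers were 1 higher and 2 lower. At the 75th percentile club cell markers were 1 higher and 2 lower in Cap-F too. Ciliated cell markers were 0 higher and 4 lower of 6, with a median of -0.88 (1 lower in each particle-fed group, with medians of -0.45 in Cap-F and -0.30 in ODNcap-F), namely Tppp3 at -1.99, Ccdc39 at -0.99, Tekt1 at -0.91 and Tekt4 at -0.86. Mucous cell markers were 6 higher of 6, with a median of 4.18, and their sum, with Muc5b brightest in NT and Clca1 in the OVA-exposed mice, was 10.97 and 11.75 for NT, 17.20 and 16.93 in Ctrl-F, 16.99 and 17.65 in Cap-F, and 17.41 and 17.72 in ODNcap-F. The mucin Muc5ac rose by 5.68, and Fcgbp and Agr2, which act in mucus structure and mucin folding, rose by 4.18 and 4.17. Clca1, a secreted mucus protein, rose by at least 12.29, as 1 of the 2 NT arrays was not above background. General epithelium markers were 0 higher and 1 lower of 4, the claudin Cldn7 at -0.54, with a median of -0.051 that turned to 0.0021 at the 75th percentile, beside -0.23 in Cap-F and 0.053 in ODNcap-F. Among the OVA-exposed groups, limma called 0 of the 166 list genes in each comparison, with 15 in ODNcap-F against Ctrl-F, 27 in ODNcap-F against Cap-F and 28 in Cap-F against Ctrl-F at an unadjusted p under 0.05, which is 9.04%, 16.3% and 16.9% beside 6.78%, 13.4% and 16.6% of all genes. The local-pooled-error test called 8, 5 and 10 of them, or 4.82%, 3.01% and 6.02%, beside 0.838%, 0.855% and 1.48% of all genes.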

How the data were processed

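Lung RNA of 8 mice was measured on Agilent SurePrint G3 Mouse 8x60K arrays. The authors deposited background-subtracted intensity for each spot from Agilent Feature Extraction 11.0, not normalized between arrays, with raw median intensity and flags. The authors also deposited log2 values for 32312 probes, log transformed, quantile normalized and filtered, and the filter is not described. Intensities of 59305 spots were set missing where marked by that software as non-uniform or outlying (792 values), averaged on the log2 scale into 56605 probes and quantile normalized. A probe stayed if both arrays of any group had it well above background (37116 probes). RefSeq accessions gave names to 32994 probes, 24290 of those kept.

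All probes entered 1 limma fit (limma 3.58.1, statmod 1.5.0, data.table version 1.17.8, R 4.3.3) with 4 residual degrees of freedom and Benjamini-Hochberg adjustment. Steps were tested on simulated data. Figures and promoter searches used Python 3.11.15 and matplotlib 3.10.9. Alternatives were scaling to the 75th percentile, normexp on median signals with offset 50, the deposited table, other filters, the replicate block, an intensity trend, single pairs of groups, each array left out, probe means, other thresholds and a local-pooled-error test. Members and lists were chosen with earlier results of these data known. Genes named are the members, from each list up to 4 called in Ctrl-F against NT by smallest p and up to 4 called among OVA-exposed groups (limma called none), and probes of these with the opposite sign or more than 1 log2 apart. Of the list genes so chosen, 1 is not reported here. Likeness to other genes was to be measured for members whose group means span more than 1 log2 by the brighter probe, and none did.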

Additional observations from a re-analysis of the deposited data

How the results depend on the processing

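Over 18 alternatives for each of the 10 members, all at an adjusted p under 0.05 with no fold required, the sign and the side of the threshold were both kept in 168 of 180 values of Ctrl-F against NT, 167 of Cap-F and 168 of ODNcap-F. Among OVA-exposed groups no call changed, and the sign was kept in 168, 165 and 171 of 180. Scaling to the 75th percentile reversed Sftpa1 in Ctrl-F (0.22) and Lamp3 in Ctrl-F (0.031) and ODNcap-F (0.0068), and the cause was not tested. It also turned Sftpa1 and Sftpc, not called, in Cap-F and Sftpc in Ctrl-F, and other sign changes of Sftpa1 against NT, in Cap-F under normexp (0.00081) or without Cap-F mouse 2 (0.052) and in ODNcap-F without NT mouse 2 (-0.0094), were not calls either. Requiring a fold over 2 gave 0, 0 and 0 members called in these comparisons, in place of 7, 8 and 8, and 69 list genes in place of 127, which follows from the stricter threshold. Those member counts use the brighter probes: with the mean of its 2 probes Sftpb was at -1.07, -1.09 and -1.10, past 2-fold. Leaving out 1 array gave 6 to 8 members called in Ctrl-F, 5 to 8 in Cap-F (5 without NT mouse 2 or Cap-F mouse 2), 6 to 8 in ODNcap-F, 0 to 0 in each comparison among OVA-exposed groups, and 105 to 127 list genes; a lone array is then assumed to vary like the other groups. With the replicate block the counts were 7, 8 and 8 against NT, 0, 0 and 0 among OVA-exposed groups, and 126 list genes, and it changed no member's call. Correlations of same-numbered deviations ran from -0.012 to 0.16, the highest between Cap-F and ODNcap-F. The labels name no pairing, and whether same-numbered mice shared an experiment cannot be decided from these values. Quantile normalization limits what the brightest probes can show, and the members' signals were well above background on all 8 arrays.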
